A study of Mus musculus with 6 samples.

Results

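The comparison described here sets the colon immune cells of specific-pathogen-free (SPF) mice after 7 days of dextran sodium sulfate (DSS) against those after 2 days of DSS, across all genes and within classes of cells. Both libraries came from wild type mice with an intact flora, and the untreated SPF control library, labelled day 0, is given as a level where a result turns on it. The strain, sex, age, DSS dose and number of mice behind each library are not given in the sources used here. Colons were washed, stripped of epithelium with EDTA, digested with Liberase TL and DNase I, sorted for CD45 (the surface protein of blood-derived cells) and run on the 10x Genomics 5′ kit, which counts transcripts by unique molecular identifiers (UMIs). Cell barcodes were kept where at least 200 genes were detected and at most 10% of UMIs came from mitochondrial genes. That left 10633 barcodes at day 7 and 2997 at day 2, together 13630 of the 31304 kept in all 6 libraries of the series. There was 1 library a side, so nothing below is a test between the days: a difference between 2 libraries has no replicate check, and intervals cover counting error only.

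DSS in drinking water damages the colonic epithelium, and bacteria of the lumen then reach the lamina propria. In the colitis that follows, monocytes and neutrophils enter from the blood, and newly arrived monocytes are known to make inflammatory mediators before some of them become macrophages. The resident macrophages of the healthy gut, by contrast, carry MHC class II, take up debris and stay comparatively unresponsive to bacterial products. IgA plasma cells, intraepithelial T cells and group 2 innate lymphoid cells (ILC2s) are among the other resident immune cells.

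The libraries also differed in quality and depth. At day 2, 61.1% of barcodes exceeded the mitochondrial limit, against 8.05% at day 7, so the day 2 values rest on 2997 of 7753 barcodes and the day 7 values on 10633 of 11629. Kept barcodes held a median of 3037 UMIs at day 7 and 5528 at day 2, from 45074786 and 27582145 UMIs in all. The 2 libraries shared 33 barcode sequences, 0.310% of the day 7 barcodes and 1.10% of the day 2 barcodes. Each barcode was placed in a class by its detected markers. Barcodes whose leading panel had under 1.5 times the detected share of the next panel were set apart, 561 (5.28%) at day 7 and 173 (5.77%) at day 2. A barcode kept in a class can still hold 3 markers of a second panel. The largest sets among them at day 7 combined T cell with neutrophil markers (163 barcodes) and monocyte with neutrophil markers (120). The 10 genes furthest above the other classes held no marker of another panel in any class compared.

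Neutrophils, T cells and monocytes or macrophages took larger shares of the kept barcodes at day 7, and plasma cells, dendritic cells, epithelial cells and fibroblasts smaller ones. Neutrophils, short-lived phagocytes recruited from blood, were 3757 barcodes at day 7 and 31 at day 2, or 35.3% and 1.03% of kept barcodes, a 34.2-fold higher share. T, NK or innate lymphoid cells were 33.1% at day 7 (3518 barcodes, exact 95% interval 32.2 to 34.0%) and 22.5% at day 2 (673 barcodes, 21.0 to 24.0%). Monocytes or macrophages were 15.1% at day 7 (1601 barcodes) and 9.61% at day 2 (288). B cells were 2.62% (279 barcodes) and 0.334% (10 barcodes), a share 7.86-fold higher at day 7.

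Plasma cells, the antibody-secreting end stage of B cells, were 0.912% at day 7 (97 barcodes) and 11.8% at day 2 (353 barcodes), a 12.9-fold lower share. Over the 3 SPF libraries their share was 53.5% at day 0, 11.8% at day 2 and 0.912% at day 7. Dendritic cells were 78 barcodes in each library, 0.734% at day 7 and 2.60% at day 2. Epithelial cells, which the sort was meant to leave out, were 0.517% at day 7 (55 barcodes) and 26.7% at day 2 (799). Fibroblast or smooth muscle barcodes numbered 2 at day 7 and 417 at day 2. Endothelial cells were 0 of 10633 barcodes at day 7, for which a floor of 3 counts gives a share of 0.0282% and the exact 95% interval an upper limit of 0.0347%, and 20 barcodes at day 2.

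Because a share of all barcodes moves with every other class, the same classes were also counted against immune barcodes alone, which were 87.9% of kept barcodes at day 7 and 48.3% at day 2. On that denominator T, NK or innate lymphoid cells were 37.6% at day 7 and 46.5% at day 2, and monocytes or macrophages 17.1% and 19.9%, so both directions turned. The neutrophil gate mattered as well: a neutrophil was required to carry at least 1% of its UMIs from S100a8 and S100a9, the calprotectin subunits, and 6381 day 7 barcodes had 3 or more neutrophil markers, 2171 of them below that 1%. Without the rule the monocyte or macrophage share was 8.11% at day 7 and 9.51% at day 2. Only 229 of those day 7 barcodes lay between 0.5 and 1% and 167 between 1 and 2%. A further 147 barcodes at day 7 and 1 at day 2 had at least 10% of UMIs from haemoglobin genes and stand in no class.

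**Figure D1:**
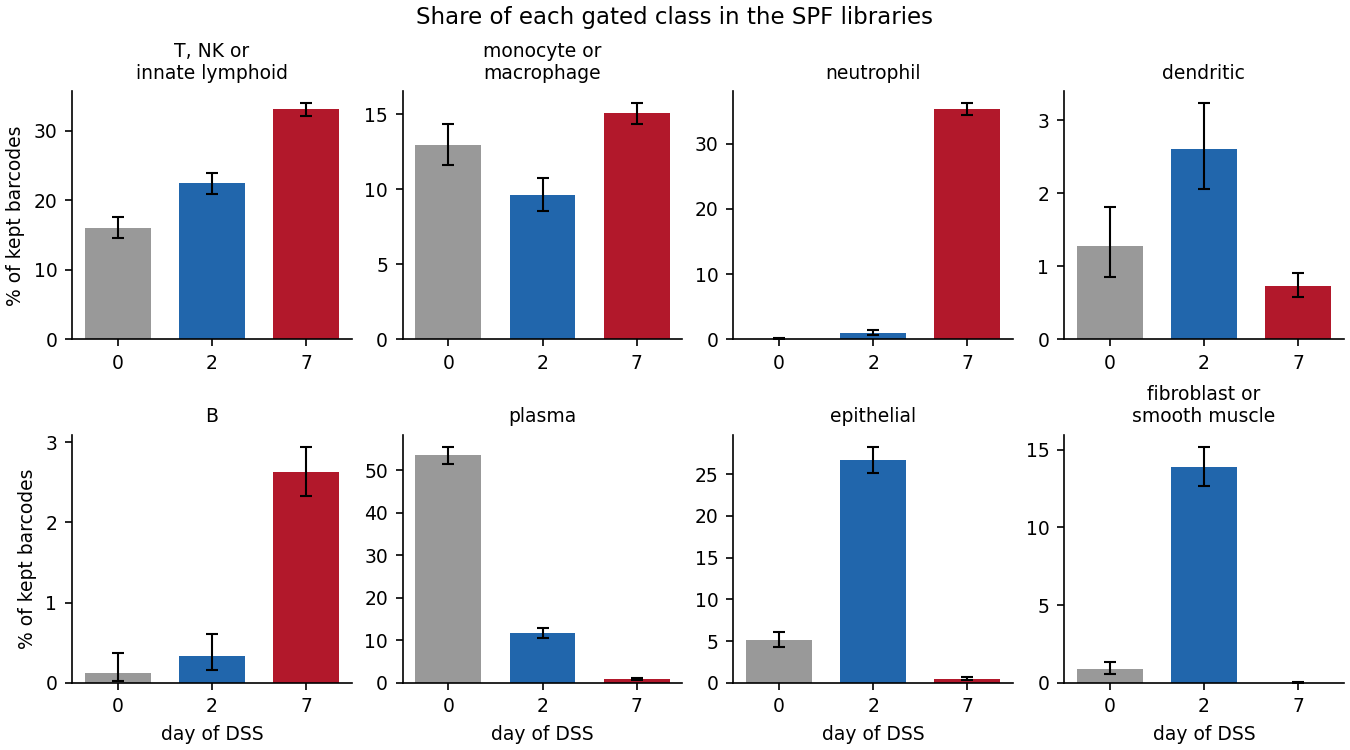
Share of kept barcodes (y axis, %) in each gated class of the 3 SPF libraries by day of DSS (x axis); bars are shares and whiskers exact 95% binomial intervals, which cover counting error only. Neutrophils stood at 35.3% at day 7 and 1.03% at day 2, and plasma cells at 0.912% and 11.8%.

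Genes were compared in the 5 classes with at least 50 barcodes in both libraries, as summed UMIs scaled to 1000000 UMIs of the class (CPM), and on a log2 scale after adding 10 CPM. Among genes with 10 CPM in either library, the share at least 2-fold higher at day 7 was 4.87% in monocytes or macrophages, 1.57% in T, NK or innate lymphoid cells, 7.34% in dendritic cells, 3.13% in plasma cells and 6.51% in epithelial cells. The shares at least 2-fold lower were 14.3%, 2.13%, 8.47%, 6.13% and 5.85% in the same order of classes. The counts of list members were read against these backgrounds. The median log2 difference over all genes was -0.38 in monocytes or macrophages and -0.28 in plasma cells, and the shift of a typical gene found by median-of-ratios scaling was -0.15 and -0.19 (log2) in these classes. In a sum over a class, fewer cells carrying a transcript and less transcript per cell cannot be told apart, so the number of barcodes with a UMI is given beside the genes that matter most.

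Monocytes and macrophages at day 7 carried most measured serum amyloid, inflammatory and arginine or nitric oxide list genes at levels at least 2-fold higher, some of them, such as Saa3, Nos2 and Csf3, from at most 1 UMI at day 2, and most MHC class II and homeostatic macrophage list genes at levels at least 2-fold lower. Of 7788 genes measured, 379 were at least 2-fold higher and 1111 at least 2-fold lower. The furthest of all named genes was Saa3, an acute-phase serum amyloid that mouse macrophages make in inflamed tissue. It had 168914 UMIs (17640 CPM) at day 7 and 1 UMI (0.813 CPM) at day 2, and 0 at day 0. A total of 1159 of 1601 day 7 barcodes (72.4%) held it, against 1 of 288 at day 2, and the CPM ratio of 21709 has an interval of 3896 to 857479 because it rests on that single UMI. Some of this RNA was found outside the class: T, NK or innate lymphoid barcodes held 610 CPM of Saa3 at day 7 and 0 at day 2. After every barcode was thinned to 1000 UMIs, 60.4% of monocytes or macrophages held Saa3 at day 7, against 9.04% of the T, NK or innate lymphoid barcodes of that library.

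Slpi, a secreted inhibitor of neutrophil elastase with antimicrobial activity, had 10695 CPM at day 7 and 73.9 CPM at day 2, and was found in 72.2% and 9.03% of barcodes. The plasma haemoglobin binder Hp had 1806 CPM at day 7 and 42.3 CPM at day 2, and the chitinase-like lectin Chil3, a product of mouse monocytes and alternatively activated macrophages, 3953 and 180 CPM. All 3 stood at least 20-fold higher at day 7, by CPM ratios of 145, 42.8 and 22.0. Lcn2, which sequesters bacterial iron carriers, had 11276 UMIs at day 7 and 0 at day 2, but its day 7 level in neutrophils was higher still. Of the 9 measured members of the serum amyloid, alarmin and antimicrobial list, 7 were at least 2-fold higher and 1, Lyz1, at least 2-fold lower, with a median log2 difference of 4.39.

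For the genes of this class whose promoters were searched, RefSeq sequence (GRCm38.p6) from 250 bases before to 50 bases after the gene start is shown for 3 of those that were far higher at day 7. Capitals mark matches on either strand to TTGCNNAA, a C/EBP-type motif, in Saa3, and, in Cxcl2 and Cxcl3, to a kappaB-type motif, GGG and TTTCC with any 2 bases between. The windows are chr7:46715627-46715926 (minus strand), chr5:90903649-90903948 (plus strand) and chr5:90785851-90786150 (plus strand).
Saa3: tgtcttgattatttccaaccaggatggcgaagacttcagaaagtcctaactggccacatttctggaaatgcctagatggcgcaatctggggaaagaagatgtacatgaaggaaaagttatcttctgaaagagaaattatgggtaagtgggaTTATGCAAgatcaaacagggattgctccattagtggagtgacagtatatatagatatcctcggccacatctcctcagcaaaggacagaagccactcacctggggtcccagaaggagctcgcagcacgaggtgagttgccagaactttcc
Cxcl2: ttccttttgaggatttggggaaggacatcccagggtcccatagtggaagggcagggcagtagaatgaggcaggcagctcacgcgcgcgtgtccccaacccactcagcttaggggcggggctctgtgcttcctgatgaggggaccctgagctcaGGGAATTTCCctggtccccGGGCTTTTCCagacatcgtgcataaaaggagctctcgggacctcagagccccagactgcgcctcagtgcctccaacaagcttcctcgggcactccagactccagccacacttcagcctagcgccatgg
Cxcl3: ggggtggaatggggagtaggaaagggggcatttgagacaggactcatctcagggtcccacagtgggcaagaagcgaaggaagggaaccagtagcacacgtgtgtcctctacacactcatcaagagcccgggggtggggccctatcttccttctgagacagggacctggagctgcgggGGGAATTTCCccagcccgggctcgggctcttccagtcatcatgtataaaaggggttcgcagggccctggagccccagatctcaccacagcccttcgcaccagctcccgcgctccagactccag
The Cxcl2 window held 2 kappaB matches and the other windows 1 match each. Of the 10 named genes higher in the class, 6 had a promoter in the table and 2 of them, Saa3 and Slpi, held the C/EBP letters, which 12.2% of all 27025 genes with a promoter hold. Of the 20 measured inflammatory cytokine and chemokine genes, 13 were matched and 5 (38.5%) held the kappaB letters, against 1.89% of all: Cxcl1, Cxcl2, Cxcl3, Il1rn and Il6. The letters of an AP-1-type motif were held by 5 of the same 13 genes (38.5%) too, against 8.97% of all: Cxcl10, Cxcl9, Il1a, Il1rn and Il6. Saa3 also held the letters of the interferon-type motif given below with the dendritic cells. Members of the inflammatory list were chosen with earlier results of these data known, so its shares describe that choice and support nothing. A match describes letters in a window and is no evidence of a bound site.

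The chemokines and cytokines shown next draw neutrophils and monocytes or amplify inflammation. Cxcl3 and Cxcl2 are ligands of the neutrophil receptor CXCR2: Cxcl3 had 4762 CPM at day 7 and 48.8 CPM at day 2, and Cxcl2 21362 and 5439 CPM. Csf3, the growth factor of neutrophils, had 6419 UMIs in 495 barcodes at day 7 and 0 UMIs at day 2, so it was at least 275-fold higher by a floor of 3 counts over the class. The interleukins Il1b (13614 CPM at day 7, 3224 CPM at day 2) and Il6 (185 and 12.2 CPM) and the IL-1 receptor antagonist Il1rn (3552 and 230 CPM) were higher too. Tnf had 855 CPM at day 7 and 187 CPM at day 2, and the chemokine Ccl4 15435 and 2456 CPM. In the list of inflammatory cytokines and chemokines, 15 of 20 measured genes were at least 2-fold higher and 2 at least 2-fold lower, with a median log2 difference of 2.10. Both exceptions were ligands of the monocyte receptor CCR2: Ccl7 had 34.6 CPM at day 7 and 1611 CPM at day 2, and Ccl2 125 and 1022 CPM. Neutrophil markers moved with these genes: the summed level of the 14 genes of that panel in the class was 2555 CPM at day 7, with all 14 detected, and 375 CPM at day 2, with 8 detected, and their part in the result was not tested.

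Enzymes that use arginine or make itaconate, by which activated macrophages produce nitric oxide, polyamines and antibacterial metabolites, formed a second group. Nos2, the inducible nitric oxide synthase, had 7015 UMIs (733 CPM) in 450 barcodes at day 7 and 0 UMIs at day 2, at least 300.5-fold higher by the floor of 3 counts. Arg1, which competes with Nos2 for arginine, had 2715 UMIs in 250 barcodes at day 7 and 2 UMIs in 2 barcodes at day 2, a CPM ratio of 174 (interval 48.3 to 1441). Acod1, which makes itaconate, had 530 CPM at day 7 and 12.2 CPM at day 2. The arginine transporter Slc7a2 (175 and 2.44 CPM) and the arginine-recycling enzyme Ass1 (260 and 12.2 CPM) stood on the same side. Of the 8 measured members, 7 were at least 2-fold higher and none at least 2-fold lower, with a median log2 difference of 4.00; Odc1, at -0.79, was the member outside.

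Glycolysis and hypoxia genes moved with them, while nuclear-encoded subunits of the respiratory chain did not. Of 20 glycolysis and hypoxia genes, 14 were at least 2-fold higher and 0 at least 2-fold lower (median log2 1.35), among them the glycolytic enzyme Gapdh (2031 CPM at day 7, 592 CPM at day 2) and the glucose transporter Slc2a1 (138 and 29.3 CPM). Of 21 oxidative phosphorylation genes, 0 passed 2-fold in either direction (median log2 0.09). Iron and haem genes included Fth1, the ferritin heavy chain, with 42353 CPM at day 7 and 8920 CPM at day 2, and the haem-degrading enzyme Hmox1, with 471 and 107 CPM. The complement activator Cfb had 204 CPM at day 7 and 8.13 CPM at day 2, and the central component C3 246 and 80.4 CPM. In the tissue repair and matrix list 9 of 18 genes were higher and 4 lower, with Spp1 (osteopontin; 253 and 19.5 CPM) and Thbs1 (thrombospondin; 6518 and 2014 CPM) on one side and Retnla and Igf1 on the other. The list shares Chil3 with the serum amyloid list and Arg1 with the arginine list, and it holds the neutrophil markers Mmp8 and Mmp9. Timp1, an inhibitor of matrix metalloproteinases, had 4695 UMIs in 427 barcodes at day 7, 0 UMIs at day 2 and 17 UMIs at day 0.

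**Figure D2:**
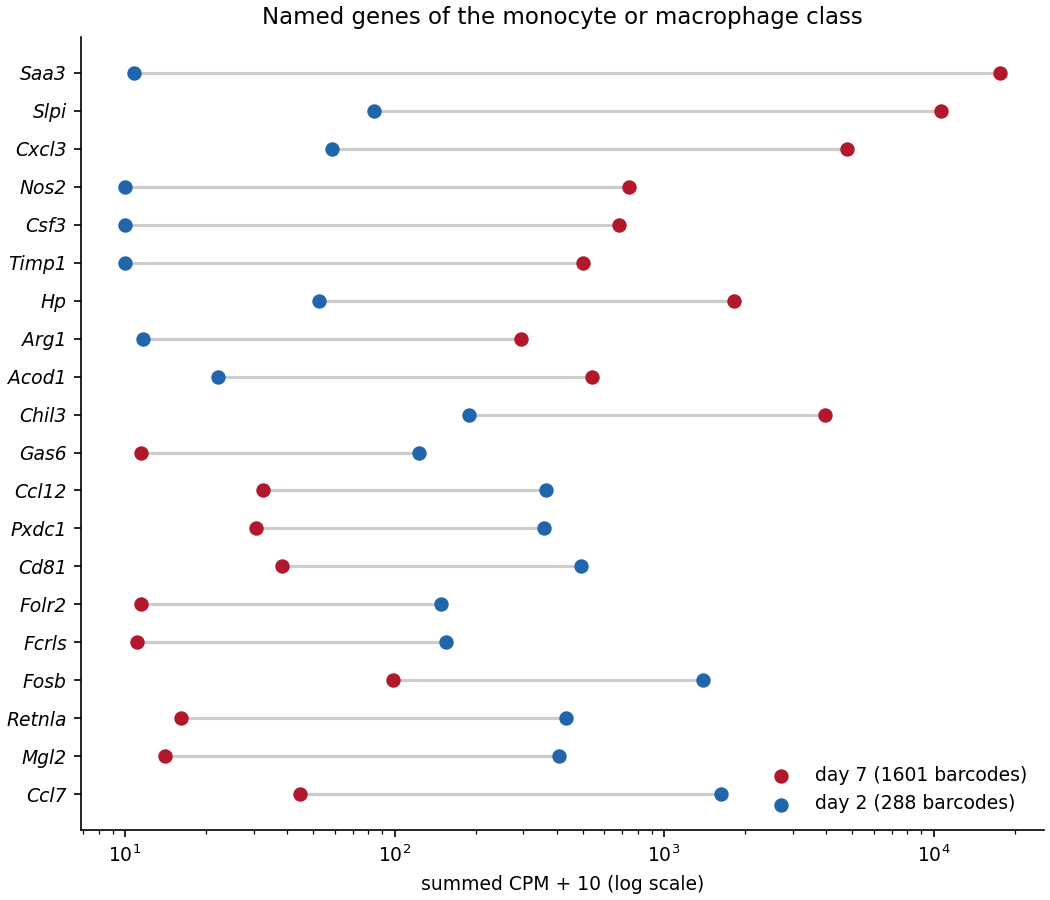
Summed level in monocytes or macrophages (x axis, CPM + 10, log scale) at day 7 and day 2 of the 10 named genes furthest in each direction (y axis). Saa3 spans the widest range, with 17640 CPM at day 7 and 0.813 CPM at day 2, and Ccl7 is the furthest of the genes lower at day 7.

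The 1111 genes lower at day 7 in this class included members of the lists of homeostatic macrophage genes (10), MHC class II (9) and immediate-early genes (12). Ccl7 was found in 58 of 1601 barcodes at day 7 and in 83 of 288 at day 2. The lectin Mgl2, carried by alternatively activated macrophages and some dendritic cells, had 4.07 CPM at day 7 and 397 CPM at day 2, and Cd81, a tetraspanin, 28.2 and 483 CPM (found in 7.75% and 50.7% of barcodes). Folr2, Lyve1 and Fcrls, which are used as labels of resident macrophages, had between 1.04 and 1.46 CPM at day 7 and between 102 and 145 CPM at day 2. Gas6, a bridge between dead cells and the receptors that clear them, had 1.46 and 113 CPM. Cx3cr1, the fractalkine receptor of gut macrophages, had 40.7 CPM at day 7 and 383 CPM at day 2, and the selenium carrier Selenop 176 and 1173 CPM. Of the 15 measured homeostatic gut macrophage genes that the gate did not use, 0 were at least 2-fold higher and 10 at least 2-fold lower (median log2 -1.92), while Il10, the main anti-inflammatory cytokine of the gut, was at 311 and 265 CPM. Retnla, a resistin-like protein of alternatively activated macrophages, had 6.16 CPM at day 7 and 423 CPM at day 2, from 2 and 17 barcodes.

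MHC class II genes, which display peptides to CD4 T cells, were lower with 1 member outside: 9 of 10 measured genes were at least 2-fold lower, with a median log2 difference of -1.83. The alpha chain H2-Aa had 1745 CPM at day 7 and 6931 CPM at day 2, and its chaperone Cd74 4976 and 18249 CPM. Ctss, which trims the chaperone, was at 1852 and 2434 CPM. Of 20 immediate-early genes, 12 were at least 2-fold lower and 1, Ier3, higher. Fosb had 88.6 CPM at day 7, 1381 CPM at day 2 and 1785 CPM in the untreated library. Of 13 heat-shock chaperones, 8 were at least 2-fold lower, led by Hspa1b with 78.4 and 605 CPM, though reads of Hspa1a and Hspa1b are hard to assign to one of these near-identical genes.

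The class was then split on C1q, since its makeup differed between the libraries. Barcodes with UMIs of at least 2 of the 3 C1q genes, which mature macrophages express, were 32.9% of the class at day 7 (527 barcodes, interval 30.6 to 35.3%) and 61.5% at day 2 (177 barcodes, 55.6 to 67.1%), and 84.3% at day 0. Thinned to 1000 UMIs, the shares were 32.0% and 61.4%, against 0.255% and 0% in T, NK or innate lymphoid barcodes. Without the S100a8 and S100a9 rule the share was 53.8% at day 7 and 62.1% at day 2, and the class itself was smaller at day 7. The size of the day 7 C1q-negative subset thus depends on that rule. Gene values within the 2 subsets were calculated only with the rule. The 10 named genes higher at day 7 in the class were at least 2-fold higher in both subsets. Among C1q-positive barcodes Saa3 had 11200 CPM at day 7 and 1.17 CPM at day 2, and among C1q-negative barcodes 20001 CPM and 0. Nos2 had 648 CPM and 0 among C1q-positive and 763 CPM and 0 among C1q-negative barcodes, and Cxcl3, at log2 differences of 5.88 and 5.95, differed by nearly the same amount in both.

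Other genes differed between days in one subset more than in the other; the difference between the subsets has no replicate check. Ccl7 had 22.6 CPM at day 7 and 2290 CPM at day 2 in C1q-positive barcodes, against 39.0 and 64.0 CPM in C1q-negative ones. Ccl2 stood the same way, with log2 differences of -4.16 and -0.01. Ccl4 went furthest in the other subset: 17943 CPM at day 7 and 266 CPM at day 2 in C1q-negative barcodes, against 8592 and 3416 CPM in C1q-positive ones. Il10 was at 324 and 37.3 CPM in C1q-negative barcodes and at 274 and 365 CPM in C1q-positive ones. The background in C1q-positive barcodes was 5.42% of genes at least 2-fold higher and 9.44% lower, and in C1q-negative barcodes 5.32% and 19.5%. Beside these, the inflammatory list had 12 of 20 members higher and 2 lower in C1q-positive barcodes, and 16 of 20 higher and 0 lower in C1q-negative ones. MHC class II had 4 of 11 members lower in the C1q-positive subset (H2-Aa log2 -0.87) and 9 of 10 in the C1q-negative one (H2-Aa log2 -2.17), and homeostatic genes 8 of 15 and 6 of 11.

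**Figure D3:**
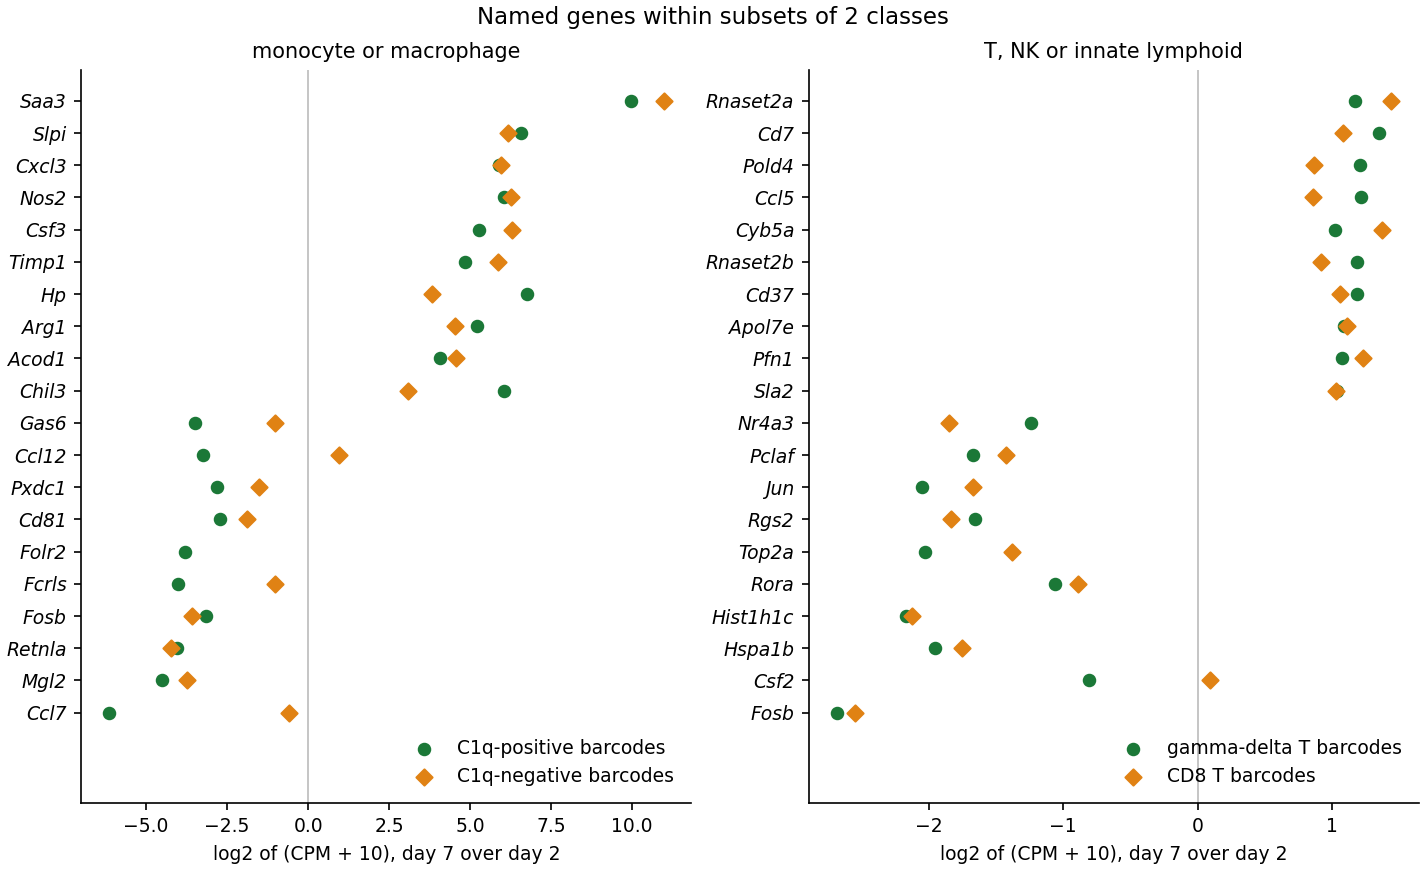
Log2 difference of CPM + 10, day 7 over day 2 (x axis), of the named genes (y axis) within C1q-positive and C1q-negative monocytes or macrophages (left) and within gamma-delta and CD8 T cells (right). Saa3 is far to the right in both macrophage subsets, whereas Ccl7 is at -6.14 in C1q-positive and -0.60 in C1q-negative barcodes.

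T, NK or innate lymphoid cells differed less: 136 of 8649 genes were at least 2-fold higher at day 7 and 184 at least 2-fold lower. The genes lower at day 7 included 10 of the cell cycle list, 11 of the immediate-early list, 8 of the heat-shock list and 7 of the type 2 list, and those higher included Ccl5, Cd7 and Gzmk. Ccl5, a chemokine stored by cytotoxic T cells, had 18138 CPM at day 7 and 7615 CPM at day 2 (11640 CPM at day 0), and Cd7, a surface receptor of intraepithelial and NK cells, 3590 and 1482 CPM. Cd7 was found in 90.4% of barcodes at day 7 and 80.5% at day 2, and in the T, NK or innate lymphoid barcodes thinned to 1000 UMIs in 86.1% and 63.5%, against 2.76% and 3.15% of monocytes or macrophages. The other named genes higher at day 7 ranged from 2.19-fold to 2.58-fold on the CPM + 10 scale: Rnaset2a and Rnaset2b (near-identical ribonucleases whose reads may be split), Pold4, Cyb5a, Cd37, Apol7e, Pfn1 (profilin, an actin-binding protein) and Sla2 (an adaptor that dampens T cell receptor signalling). For some of them the untreated library was near day 7, as for Cd37 with 195 CPM at day 0, 75.9 CPM at day 2 and 186 CPM at day 7.

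Cytotoxic genes stayed within 2-fold but for 1. Gzmk, a granzyme of memory-type T cells, had 67.5 CPM at day 7 (531 barcodes) and 8.85 CPM at day 2 (17 barcodes), a CPM ratio of 7.62 (interval 4.96 to 12.4). Gzma was at 12561 and 6835 CPM and Gzmb at 1844 and 1766 CPM. Of 9 measured cytotoxic granule genes, 1 was at least 2-fold higher and 0 lower (median log2 0.16), and of 10 type 1 genes, among them Ifng with 40.9 and 49.7 CPM, 0 passed in either direction. The 10 gut homing and residence genes also held none past 2-fold. Il22, the cytokine that prompts epithelial defence, had 672 UMIs at day 7 and 4 at day 2, but in 8 barcodes and 1 barcode, with 85.4% of the day 7 UMIs in a single barcode.

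Genes of type 2 immunity were lower at day 7, with 7 of 9 measured genes at least 2-fold lower and 0 higher (median log2 -1.46). Il5 and Il13, the cytokines by which ILC2s and T helper 2 cells act on eosinophils and goblet cells, had 0 and 1 UMIs at day 7, and 60 UMIs in 14 barcodes and 66 UMIs in 15 barcodes at day 2. Il5 was thus at least 109-fold lower by the floor of 3 counts. The growth factor Areg had 13.5 CPM at day 7 and 169 CPM at day 2, the IL-33 receptor Il1rl1 3.79 and 59.0 CPM, and the transcription factor Gata3 40.1 and 128 CPM. Barcodes gated as ILC2 were 5 of 3518 (0.142%) at day 7 and 35 of 673 (5.20%) at day 2, and 1 and 14 after thinning; that gate uses Gata3, Il1rl1, Areg, Il13 and Il5, so it counts some of the same UMIs. Within gamma-delta T cells 2 of 5 measured type 2 genes were at least 2-fold lower, and within CD8 T cells 0 of 3. The part of the ILC2 barcodes in the list's count was not tested, and with a minimum of 50 CPM that count was 3.

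Gamma-delta T cells were 40.0% of the class at day 7 (1408 barcodes) and 35.2% at day 2 (237), and CD8 T cells 37.3% (1311) and 28.7% (193). Thinned to 1000 UMIs the gamma-delta shares were 17.7% and 14.5% and the CD8 shares 39.2% and 27.5%, with 0% and at most 0.336% of plasma and B cells passing the same gates. The CD8 gate takes barcodes with Cd3 and Cd8a UMIs that fail the gamma-delta gate. A gamma-delta cell with Cd8a whose receptor UMIs are missed can therefore be counted as CD8, at either depth. Few barcodes passed the gates of regulatory T cells, 18 at day 7 and 0 of 673 at day 2 (0.446% by the floor of 3 counts), and of CD4 T cells, 53 and 5. These gates need a UMI of Cd4, and of Foxp3 for regulatory T cells. Thinned, 2 and 0 regulatory and 21 and 2 CD4 barcodes passed, so the counts depend on depth. Barcodes with cell cycle genes past the dividing gate were 2.42% at day 7 and 5.79% at day 2, or 0.891% and 2.53% when thinned, by a gate that uses Top2a and 4 more genes of the list described next.

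In the cell cycle list 10 of 18 genes were at least 2-fold lower in T, NK or innate lymphoid cells and 0 higher (median log2 -1.06). Top2a, the topoisomerase of dividing cells, had 22.7, 134 and 29.8 CPM at days 0, 2 and 7, and the replication factor gene Pclaf 24.9, 128 and 30.2 CPM. The untreated library thus lay near day 7 for both. Of the immediate-early genes 11 of 19 were at least 2-fold lower and 1 higher: Fosb had 92.9 CPM at day 7 and 703 CPM at day 2 (19.1% and 60.9% of barcodes), and Jun 227 and 837 CPM. Nr4a3 had 55.3 and 206 CPM. The untreated library had 486 CPM of Fosb, 721 CPM of Jun and 527 CPM of Nr4a3, levels nearer to day 2 than to day 7. Of the heat-shock chaperones 8 of 13 were lower, a count of 5 under median-of-ratios scaling. Hspa1b had 482, 354 and 80.2 CPM at days 0, 2 and 7. Tnfaip3, which ends NF-kappaB signalling, had 445 CPM at day 7 and 1263 CPM at day 2.

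The same lists were lower within both large T cell subsets. Gamma-delta T cells had a background of 1.96% of genes at least 2-fold higher and 2.25% lower, and CD8 T cells of 2.03% and 2.26%. Cell cycle genes at least 2-fold lower were 12 of 18 in gamma-delta and 7 of 17 in CD8 T cells, immediate-early genes 9 of 18 and 11 of 19, and heat-shock genes 7 of 12 and 8 of 13. Fosb differed by -2.68 in gamma-delta and -2.54 in CD8 T cells (log2). Csf2, a cytokine that drives myeloid cells, had 15.2 CPM at day 7 and 142 CPM at day 2 in the whole class, but its log2 differences were -0.81 and 0.09 in the 2 subsets, and a single barcode held 22.2% of its day 2 UMIs. Gzmk stood at 1.93 and 2.35.

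Inflammatory and antimicrobial transcripts in T, NK or innate lymphoid cells need the levels of other classes beside them. In this class 9 of 15 inflammatory genes and 7 of 7 serum amyloid, alarmin and antimicrobial genes were at least 2-fold higher at day 7. Of these, 1 and 0 had a level of at least 0.2 of that in the class where the gene was highest. The neutrophil panel summed to 826 CPM in the class at day 7, with 14 of 14 genes detected, and 13.5 CPM at day 2, with 8 detected, and S100a8 alone was at 343 and 0 CPM; their part in the counts was not tested. Restricted to genes at 0.2 or more of the highest class, 0.762% of genes were at least 2-fold higher and 1.69% at least 2-fold lower.

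Dendritic cells, which carry antigen to T cells, held interferon-stimulated genes at higher levels and cell cycle genes at lower levels at day 7. Each library gave 78 barcodes, with 643058 UMIs at day 7 and 630451 at day 2. Of 7973 genes 585 were at least 2-fold higher and 675 at least 2-fold lower. Isg15, a ubiquitin-like protein induced by type I interferon, had 999 UMIs (1554 CPM) in 38 barcodes at day 7 and 6 UMIs (9.52 CPM) in 6 barcodes at day 2, a CPM ratio of 163 (interval 74.7 to 446). The 5 richest barcodes held 59.9% of its day 7 UMIs. The monocyte or macrophage panel summed to 711 CPM in the class at day 7 and 1215 CPM at day 2, and the neutrophil panel to 541 and 257 CPM, with 12 and 10 of its 14 genes detected; their part in the results was not tested. After gating at 1000 UMIs, 34.4% of 32 dendritic barcodes held Isg15 at day 7 and 0 of 33 at day 2, against 6.78% and 6.15% of T, NK or innate lymphoid barcodes.

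Promoters of 3 of the genes are shown, with matches on either strand to an interferon-stimulated response element (ISRE) type motif, TTTC and TTTC with any 2 bases between, in capitals. The GRCm38.p6 windows are chr4:156200769-156201068 (minus strand) for Isg15, chr3:142496684-142496983 (plus strand) for Gbp5 and chr11:58199306-58199605 (plus strand) for Igtp.
Isg15: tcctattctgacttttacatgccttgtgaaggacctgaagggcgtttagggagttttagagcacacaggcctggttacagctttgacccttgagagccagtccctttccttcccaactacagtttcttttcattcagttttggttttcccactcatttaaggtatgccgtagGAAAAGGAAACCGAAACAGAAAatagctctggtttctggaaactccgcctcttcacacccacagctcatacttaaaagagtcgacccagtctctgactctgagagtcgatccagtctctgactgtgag
Gbp5: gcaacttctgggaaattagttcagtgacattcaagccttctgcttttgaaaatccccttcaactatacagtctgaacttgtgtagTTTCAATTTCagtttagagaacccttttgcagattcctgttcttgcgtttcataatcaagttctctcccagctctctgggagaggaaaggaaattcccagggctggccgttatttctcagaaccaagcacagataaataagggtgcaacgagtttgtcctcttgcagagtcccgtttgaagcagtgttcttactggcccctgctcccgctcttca
Igtp: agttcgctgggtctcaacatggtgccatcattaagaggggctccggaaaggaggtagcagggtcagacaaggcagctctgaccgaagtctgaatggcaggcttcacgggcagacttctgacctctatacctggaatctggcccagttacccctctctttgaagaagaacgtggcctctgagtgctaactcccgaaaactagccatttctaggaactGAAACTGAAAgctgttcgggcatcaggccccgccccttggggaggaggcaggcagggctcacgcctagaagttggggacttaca
Isg15 held 3 matches, which overlap, and Gbp5 and Igtp 1 each. Among the type I interferon-stimulated genes measured in the class, 16 of 21 had a promoter in the table and 9 of those (56.2%) held the letters; among the interferon-gamma-inducible GTPases it was 9 of 10 matched (90%) of 13. Of all 27025 genes with a promoter, 3.99% hold them. The lists were chosen as interferon targets, so this share describes the choice and supports nothing.

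In the type I interferon list 18 of 21 measured genes were at least 2-fold higher and 0 lower, with a median log2 difference of 1.64. Most rested on few UMIs: Oasl1, a relative of the synthetases that sense foreign RNA, had 125 UMIs in 21 barcodes at day 7 and 5 UMIs in 2 barcodes at day 2, Usp18, a brake on interferon signalling, 51 UMIs in 14 and 3 UMIs in 3, and Ifit1, which binds foreign RNA, 21 UMIs in 4 barcodes and 0. The transcription factor Irf7 was found in 15 and 16 barcodes, with 82.4 and 28.6 CPM. At a minimum of 50 CPM, 11 list members were at least 2-fold higher.

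The GTPases that interferon-gamma induces against intracellular microbes were higher in 10 of 13 members and lower in 0 (median log2 1.86). Gbp5, a guanylate-binding protein that promotes inflammasome activity, had 87 UMIs in 24 barcodes at day 7 and 4 UMIs in 2 barcodes at day 2. Igtp had 32 UMIs in 12 barcodes and 3 UMIs in 3, and Iigp1 39 UMIs in 6 barcodes and 0 UMIs, at least 12.7-fold higher by the floor of 3 counts. With a minimum of 50 CPM the count was 5. The interferon-induced CXCR3 ligands came from few barcodes: Cxcl9 from 13 at day 7 and 5 at day 2, and Cxcl10 from 11 and 6, with 50.7% of day 7 UMIs of Cxcl10 in 1 barcode. Thinned to 1000 UMIs, Cxcl10 was lower at day 7, by a log2 difference of -2.01.

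**Figure D4:**
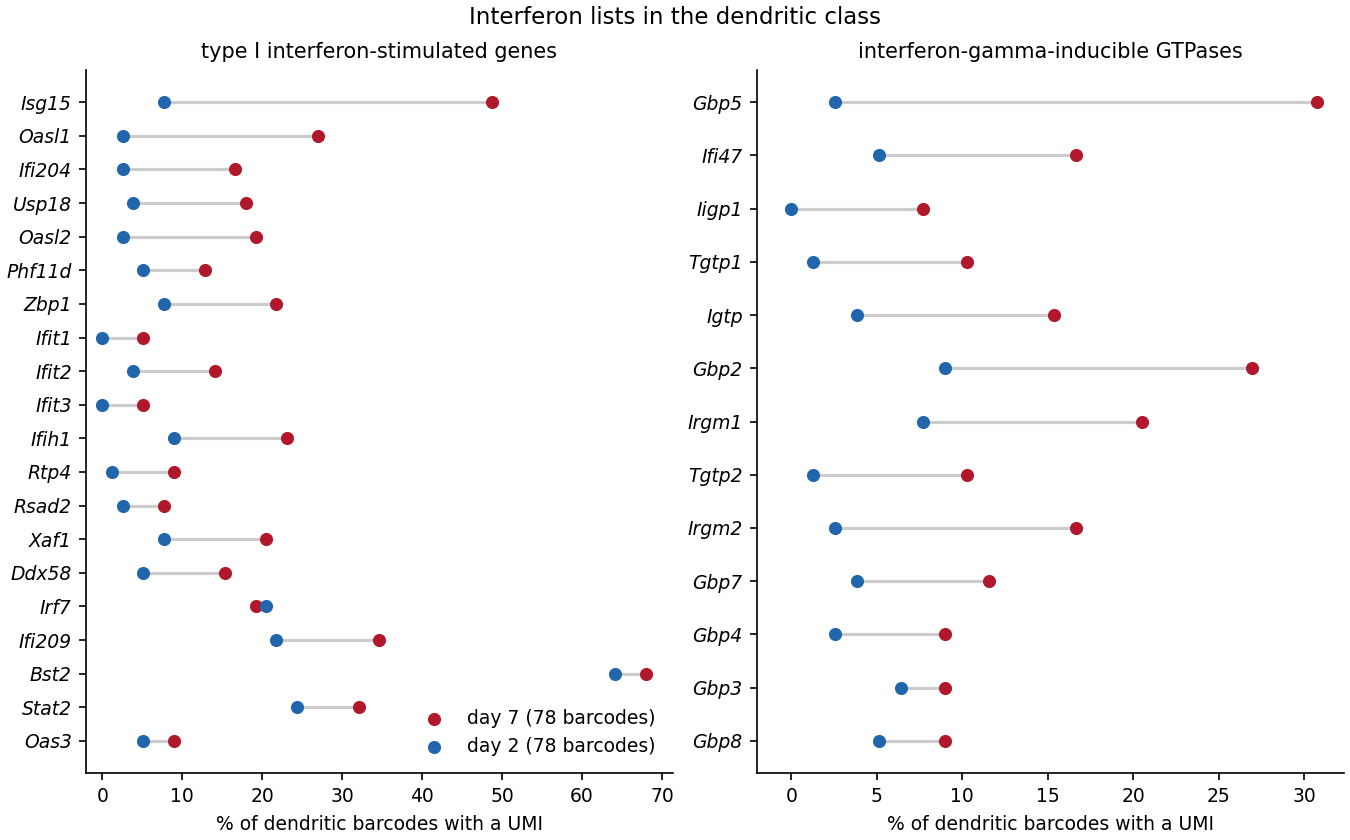
Share of the 78 dendritic barcodes of each library that held a UMI (x axis, %) for measured members (y axis) of the type I interferon list (left) and of the interferon-gamma-inducible GTPases (right). Isg15 was held by 48.7% at day 7 and 7.69% at day 2; Irf7 is a member whose day 7 share lies below its day 2 share, at 19.2% and 20.5%.

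Other named genes higher in dendritic cells were Dll4, a Notch ligand (119 UMIs in 18 barcodes at day 7, 3 UMIs in 1 barcode at day 2), the surface protein Ly6a (28 and 6 barcodes), the protein C receptor Procr (24 and 3 barcodes) and the carbonic anhydrase Car13 (17 and 0 barcodes). Hamp, the iron hormone hepcidin, and Enpp2, which makes lysophosphatidic acid, were each at 0 UMIs at day 2 and came from 8 and 6 barcodes at day 7, with 43.3% and 54.3% of UMIs in the richest one. The activation receptor Tnfrsf9 had 137 CPM at day 7 (17 barcodes) and 7.93 CPM at day 2 (2 barcodes). MHC class II genes stayed close, with 1 of 11 (H2-Ob) at least 2-fold lower and 0 higher: H2-Aa was at 10026 and 6840 CPM.

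In the cell cycle list 17 of 19 genes were at least 2-fold lower in dendritic cells and 0 higher, with a median log2 difference of -1.61. Top2a had 2 UMIs in 2 barcodes at day 7 and 99 UMIs in 17 barcodes at day 2, and Mki67 18 and 68 UMIs. The Top2a difference after thinning to 1000 UMIs, 0.034 (log2), no longer showed this. Of the immediate-early genes 12 of 20 were lower, Fosb among them with 19 and 62 barcodes. Tlr3, the receptor for double-stranded RNA carried by cross-presenting dendritic cells, was found in 4 barcodes at day 7 and 32 at day 2, and Wnt11 in 1 and 29.

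Tlr3 lay in a class whose makeup differed. Barcodes with a UMI of Xcr1 or Clec9a, which mark cross-presenting dendritic cells, were 14 of 78 (17.9%, interval 10.2 to 28.3%) at day 7 and 45 of 78 (57.7%, 46.0 to 68.8%) at day 2. Barcodes with both Fscn1 and Ccl22, genes of mature migrating dendritic cells, were 23 and 4, and Ccr7, the receptor for migration to lymph nodes that the gate did not use, was found in 44 and 16. Within the Xcr1 or Clec9a barcodes, where 8.95% of all genes were at least 2-fold higher and 14.8% lower, 11 of 18 type I interferon genes and 7 of 9 GTPases were higher and 0 lower. Within barcodes of neither kind, with a background of 11.1% and 15.1%, it was 19 of 21 and 11 of 13. Isg15 had 464 and 2.27 CPM in the first set and 1783 and 28.5 CPM in the other. Cell cycle genes lower at day 7 were 15 of 19 and 8 of 13 in the 2 sets, and immediate-early genes 12 of 20 and 11 of 20. Both days' sets hold between 14 and 45 barcodes, which limits these counts.

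Plasma cells (97 barcodes at day 7, 353 at day 2) differed in the levels of their antibody transcripts, and 174 of 5561 genes were at least 2-fold higher and 341 at least 2-fold lower. Igha, the heavy chain of IgA, had 120473 CPM at day 7 and 221020 CPM at day 2, and was found in 92 of 97 and 353 of 353 barcodes. The kappa light chain Igkc had 43777 and 112978 CPM. Ighm, the heavy chain of IgM, stood the other way with 1738 and 62.0 CPM, from 11 and 27 barcodes, but 90.2% of its day 7 UMIs came from 1 barcode. The IgG genes likewise rested on single barcodes: Ighg2b (2356 and 640 CPM) took 95.1% of its day 7 UMIs and 80.0% of its day 2 UMIs from 1 barcode each, and Ighg2c (5.49 and 412 CPM) 98.0% of its day 2 UMIs. Ighg1 had 17 UMIs in 2 barcodes at day 7 and 9596 UMIs in 32 barcodes at day 2, 50.7% of them in 1. Heavy-chain constant genes resemble each other, so reads may be split between them. All these levels are of constant genes, scaled to a total that includes the variable genes. The share of all antibody genes together is not given here. With antigen receptor genes among those left out of the total, 422 genes of the class were at least 2-fold higher at day 7.

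Genes lower in plasma cells at day 7 included Crip1, a zinc-binding LIM protein (174 CPM at day 7, 1472 CPM at day 2, found in 60.8% and 93.2% of barcodes), the intermediate filament Vim (67.1 and 469 CPM), the nuclear lamin Lmna (35.4 and 227 CPM), the scaffold Ahnak (48.2 and 309 CPM) and Myadm, a membrane protein (18.3 and 180 CPM). After thinning to 1000 UMIs, Myadm was found in 0% of 63 barcodes at day 7 and 18.6% of 290 at day 2, against 0.827% and 2.71% of T, NK or innate lymphoid barcodes, whereas Crip1 was found in 14.3% and 50.7%, against 44.2% and 43.9%. The untreated library had 989 CPM of Crip1 and 111 CPM of Myadm, levels nearer to day 2 than to day 7.

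Higher at day 7 were the heat-shock genes Hspa1b (244 and 67.3 CPM) and Hspa1a (153 and 41.7 CPM), Rbm3, a cold-inducible RNA-binding protein (377 and 136 CPM), the granule protein Prg2 (351 and 132 CPM), Vpreb3 (112 and 40.9 CPM) and the translation factor Eif3f (237 and 100.2 CPM). The 4 remaining named genes, Pgls, Polr2f, Sdf2l1 and Ssr2, stood 1.71-fold to 1.87-fold higher and did not reach 2-fold. Genes of antibody secretion and the unfolded protein response held 0 of 17 higher and 1 lower, the chaperone Calr with 283 and 665 CPM, and a median log2 difference of -0.33. The counts of all genes higher and lower were 199 and 241 under median-of-ratios scaling, and 422 and 278 when antigen receptor genes were among those left out of the total. The 11 of 14 inflammatory genes that were higher had 0 members among those at 0.2 of the highest class or more, a set in which 2.4% of genes were higher and 7.27% lower. The neutrophil panel summed to 303 CPM at day 7 and 8.59 CPM at day 2 in this class.

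The epithelial barcodes, 55 at day 7 and 799 at day 2, are cells left after the EDTA step and the sort, so they need not stand for the epithelium of the tissue, and their median depth was 1791 UMIs at day 7 and 17992 at day 2. Antimicrobial and stress genes were higher at day 7 in 10 of 11 members and lower in 0 (median log2 2.99). Reg3b and Reg3g, lectins that epithelial cells secrete against bacteria, had 21641 and 2986 CPM at day 7, and 354 and 89.4 CPM at day 2. Reg3b was found in 26 of 55 barcodes at day 7 and in 103 of 799 at day 2, and in 45.7% and 6.72% after thinning, against 2.23% and 0% of T, NK or innate lymphoid barcodes. A single barcode held 45.4% of its day 7 UMIs and 71.6% of those of Reg3g. Ly6a, a mouse marker of regenerating epithelium, had 1749 CPM at day 7 from 16 barcodes and 353 CPM at day 2 from 473. The hydrogen peroxide-producing oxidase Duox2 had 333 and 47.1 CPM, from 8 and 225 barcodes.

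Several of the named genes higher in this class came from a handful of barcodes at day 7. Apoa1 and Apoa4, lipoprotein genes of the small intestine, were found in 4 and 3 barcodes, with 76.6% and 71.8% of UMIs in the richest one, and Fabp1, Rbp2 and Apoc2, of fatty acid, retinol and lipoprotein handling, had between 83.6% and 94.6% of their UMIs in 1 barcode. Nos2 (7 barcodes), Clca4b (9) and Ly6c1 (5) were similar in number.

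Genes lower at day 7 included Mptx1, Ang4 and Sycn and most of the cell cycle list. Mptx1, the mucosal pentraxin, had 1 UMI at day 7 and 19031 UMIs in 169 barcodes at day 2, a CPM ratio of 0.00179. Ang4, an antimicrobial ribonuclease, had 0 and 1914 UMIs, at least 18.7-fold lower by the floor of 3 counts, but its day 2 UMIs came from 30 barcodes. Sycn, a secretory granule protein, had 118 CPM at day 7 and 1377 CPM at day 2 (11 and 466 barcodes), the desaturase Scd2 45.8 and 362 CPM (7 and 601 barcodes), and Hmgcs1, an enzyme of cholesterol synthesis, 48.2 and 243 CPM. In the cell cycle list 16 of 18 measured members were at least 2-fold lower and 0 higher (median log2 -1.35). Ccnd1, the cyclin of the early cycle, had 7.24 and 107 CPM from 3 and 400 barcodes, but its thinned difference was 0.23. Colonocyte genes went both ways: Car4, a carbonic anhydrase, had 1061 and 168 CPM and the phosphate transporter Slc20a1 72.4 and 262 CPM. All 12 inflammatory genes higher in this class lay below 0.2 of the highest class, and the neutrophil panel summed to 2053 CPM at day 7 and 93.0 CPM at day 2.

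Set side by side over the 5 classes, the lists had different extents. Of the cell cycle list, the members at least 2-fold lower were 10 of 18 (T, NK or innate lymphoid), 7 of 9 (monocyte or macrophage), 17 of 19 (dendritic), 3 of 8 (plasma) and 16 of 18 (epithelial), and 0 were at least 2-fold higher in any class. Among members at 0.2 or more of the highest class these were 10 of 18, 2 of 4, 17 of 19, 0 of 1 and 12 of 13. With a minimum of 50 CPM, 1 was lower in monocytes or macrophages, 8 in dendritic and 4 in epithelial cells, and within C1q-negative barcodes 1 of 4 was. Immediate-early genes lower at day 7 were 11 of 19, 12 of 20 and 12 of 20 in the first 3 classes, with 1, 1 and 0 higher, against 4 of 17 in plasma cells, with 2 higher, and 3 of 17 in epithelial cells. Heat-shock genes were lower in 8 of 13 members in T cells and in monocytes or macrophages, against 1 of 12 in dendritic cells, 0 of 13 in plasma cells, where 2 were higher, and 3 of 13 in epithelial cells, where 1 was higher. The type I interferon list had 18 of 21 members higher in dendritic cells, against 1 of 15 in T, NK or innate lymphoid cells, 4 of 21 in monocytes or macrophages, 4 of 14 in plasma cells and 11 of 20 in epithelial cells, with 1 lower in each of the last 3. Isg15 was at least 2-fold higher in all 5 classes. At day 7 and day 2 it had 727 and 117 CPM in monocytes or macrophages, 147 and 9.43 CPM in epithelial cells and 74.5 and 13.4 CPM in plasma cells. In T, NK or innate lymphoid cells it had 124 and 55.2 CPM and was the 1 list member counted. Dendritic cells, the highest class, had 1554 CPM at day 7, and the epithelial, plasma and lymphoid levels lay below 0.2 of that. Among interferon list members at 0.2 or more of the highest class, those higher were 18 of 20 (dendritic), 0 of 10 (T, NK or innate lymphoid), 4 of 21 (monocyte or macrophage), 1 of 6 (plasma) and 9 of 11 (epithelial). No oxidative phosphorylation gene was at least 2-fold higher in any of the 5. Differences between classes have no replicate check either.

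**Figure D5:**
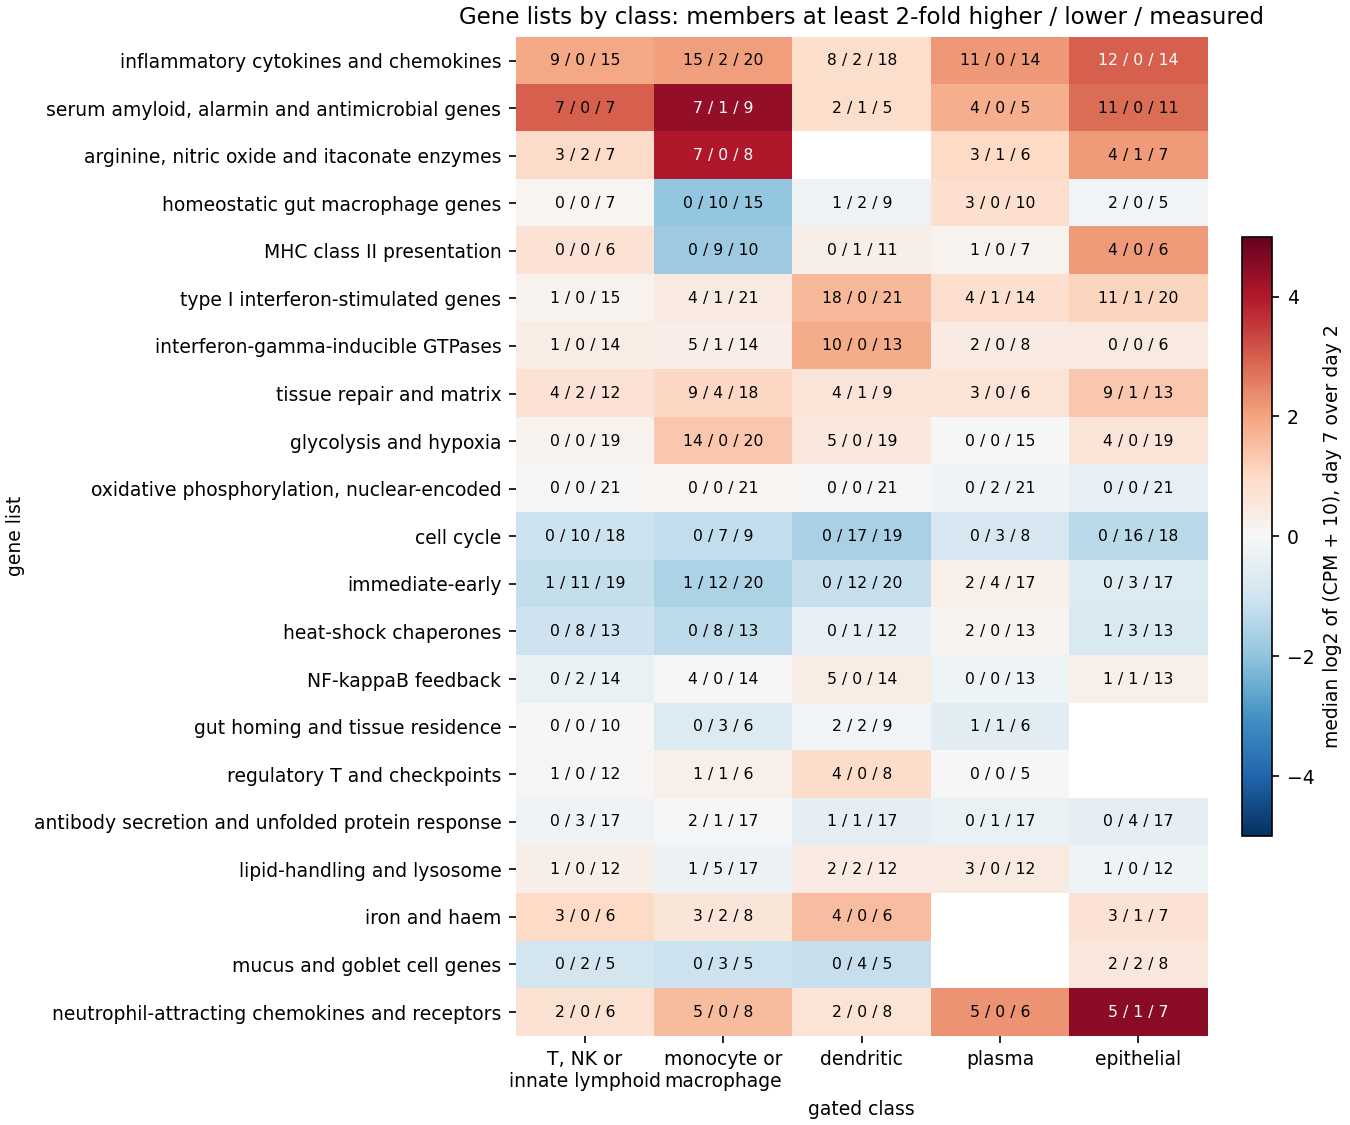
Gene lists (y axis) by gated class (x axis); colour is the median log2 difference of CPM + 10, day 7 over day 2, and each cell gives members at least 2-fold higher, at least 2-fold lower and measured, with blank cells where fewer than 5 members were measured. Cell cycle has 0 members higher in all 5 columns, and the serum amyloid list in monocytes or macrophages has a median of 4.39.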

How the data were processed

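Gene by barcode UMI counts were deposited by the authors for each library and are unnormalized counts of 32285 genes, written by Cell Ranger 6.1.2 per the file headers. The submitters' processing notes name genome build mm10, R 4.1.3 and Seurat 4.1.1. The filter of at least 200 genes and at most 10% mitochondrial UMIs was applied here to all 6 libraries. Only the SPF day 7, day 2 and day 0 libraries were then classed. No column of another series was present.

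Each barcode was classed by 12 marker panels: it needed 3 detected markers of a panel, a lead of 1.5 times over the next panel and, for the neutrophil panel, 1% of UMIs from S100a8 and S100a9. Droplets with at least 10% haemoglobin UMIs were set apart. No doublet caller was used. Barcodes without the lead of 1.5 times were left out, and a caller that removed 904 day 7 and 72 day 2 barcodes was an alternative. The scoring rule, the dendritic split and the counts at 0.2 of the highest class were chosen after seeing the data.

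Counts were summed per class, scaled to CPM and compared as log2 of (CPM + 10) among genes with 10 CPM in either library; the calculation was tested on simulated data. Named genes were the 10 furthest each way that reached 100 CPM and 20 UMIs on their higher side and 0.2 of the highest class's level, leaving out receptor variable, mitochondrial, ribosomal, haemoglobin, sex-linked, unnamed and gating genes. Genes outside that rule are members of the 31 lists, antibody constant genes or gate and makeup genes. The members and lists were chosen with earlier results of these data known. Shares have exact Clopper-Pearson 95% intervals and CPM ratios exact conditional ones, and the floor for 0 counts is 3 counts over the class. PCR and free RNA are outside these intervals. Python 3.11.15, NumPy 2.4.6, SciPy 1.17.1, pandas 2.3.3 and matplotlib 3.10.9 were used. Promoters are from a RefSeq table of GRCm38.p6. A few genes are counted in the lists but not reported here by name.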

Additional observations from a re-analysis of the deposited data

How the results depend on the processing

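With 1 library a side there was no replicate to leave out. No paired analysis was possible because each day is a single library. Among 1300 values of named genes under alternative settings 1090 kept their size, 207 moved in size and 3 turned, all after thinning to 1000 UMIs: Cxcl10 (-2.01) and Top2a (0.034) in dendritic cells and Ccnd1 (0.23) in epithelial cells; the cause was not tested. The settings with no CPM minimum, at least 50 CPM and genes at 0.2 or more of the highest class could not change a named gene's value. Each of them adds 100 values to those that kept their size, so these say nothing about stability. Shares are log2 ratios, day 7 over day 2. Against immune barcodes the T, NK or innate lymphoid share was -0.30 and the monocyte or macrophage share -0.22, both turned, and the neutrophil, dendritic and plasma shares were 4.23, -2.69 and -4.55. Without the S100a8 and S100a9 rule, an alternative chosen after seeing the data, the monocyte or macrophage share turned to -0.23 and the C1q-positive share was -0.21. The T, NK or innate lymphoid share was 0.32 at a 5% mitochondrial limit, 0.72 at 20%, 0.79 with at least 500 genes and 0.92 when thinned; the epithelial share was -5.05 at 5%, and the monocyte or macrophage share 0.87 with at least 500 genes and 0.36 when thinned.

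Of 178 counts of list members 28 moved by over 1.5 times. These counts were repeated under median-of-ratios scaling, at 50 CPM, without the S100a8 and S100a9 rule and at 0.2 of the highest class. They were also repeated within subsets. They were not repeated with other pseudocounts, thinning, equal weight per barcode or other mitochondrial limits, so they cannot be set beside the gene counts below for stability. Counts of genes past 2-fold moved with the pseudocount and depth. With 1 CPM added, 326 were higher and 374 lower in T, NK or innate lymphoid cells, 2203 lower in monocytes or macrophages, 1036 and 1300 in dendritic, 283 and 1012 in plasma and 952 and 1103 in epithelial cells. With 50 CPM added the pairs were 34 and 50, 187 and 287, 158 and 113, 89 and 105, and 169 and 76 in the same order of classes. With at least 50 CPM they were 66 and 117 (T, NK or innate lymphoid), 663 lower (monocyte or macrophage), 328 and 332 (dendritic), 110 and 220 (plasma) and 301 and 246 (epithelial). Thinned, they were 2178 and 2522 in dendritic, 956 and 2437 in plasma and 1696 and 3173 in epithelial cells. With equal weight per barcode 371 were higher in plasma cells, and 1179 higher and 1446 lower in epithelial cells. At a 5% mitochondrial limit 882 were lower in epithelial cells. Leaving receptor, haemoglobin, mitochondrial, S100a8, S100a9 and epithelial genes out of the total gave 422 higher in plasma cells, and genes at 0.2 or more of the highest class gave 60 higher in T, NK or innate lymphoid and 90 in plasma cells.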

Other observations

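B cells and neutrophils had too few barcodes at day 2 for a comparison across genes, and their levels are given as values. The 279 B cell barcodes at day 7 and 10 at day 2 had similar Cd79a, part of the B cell receptor, with 2596 and 2264 CPM. Genes of mature B cells stood on both sides: the IgD heavy chain Ighd had 757 and 257 CPM and the lymph-node homing receptor Ccr7 764 and 374 CPM, against 138 and 280 CPM of the complement receptor Cr2 and 97.9 and 117 CPM of the IgE receptor Fcer2a. At day 2 these rest on 11, 16, 12 and 5 UMIs. Cd79a, Ighd, Cr2 and Fcer2a are markers of the B cell gate, so they helped choose these barcodes, whereas Ccr7 is not. Ighm had 1954 and 4015 CPM. The dividing-cell gene Mki67 had 3 UMIs at day 7 and 6 UMIs at day 2.

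The 3757 neutrophil barcodes at day 7 and 31 at day 2 are compared here by level only. Of the granule genes, Mmp8 was at 1470 and 91.4 CPM, Lcn2 at 9398 and 571 CPM and Camp at 616 and 0 CPM, while the protease Mmp9 was at 1480 and 1577 CPM. These genes were chosen after their values were seen. The 31 day 2 barcodes held 43758 UMIs in all, so low values and the 0 at day 2 rest on few counts. The resistin-like gene Retnlg had 30315 and 4822 CPM. Il1b had 7288 CPM at day 7 and 22762 CPM at day 2, and the prostaglandin synthase Ptgs2 483 and 4433 CPM, while Cxcl2 was at 17407 and 22944 CPM. S100a8, S100a9, Retnlg, Mmp8 and Mmp9 are markers of the neutrophil gate, so they helped choose these barcodes. The CPM of S100a8 was 125674 at day 7 and 28429 at day 2. A median of 18.2% and 4.71% of UMIs came from S100a8 and S100a9.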
